A study of Arabis alpina with 12 samples.

Results

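In Arabis alpina, a perennial crucifer, 13 of 34220 genes were at least 3-fold higher in main shoot apices than in V3 buds in both Aatoe2_IL and wild type (WT) while their levels stayed within a narrow range between the genotypes. These genes were chosen by their measured levels, as mean counts per 1000000 reads in genes (CPM) over the 3 libraries of a group. A gene had to have an apex mean of at least 5 CPM and at least 3 times the bud mean in each genotype, with its lowest apex library above its highest bud library, and an Aatoe2_IL to WT ratio between 0.67 and 1.5 in apices and in buds. The orthologues of SPL4, SPL5, SPL10, TOE3, LOG7 and SEOR1 were left out by name, but none of these met the rule, so that 13 genes were also found with them allowed. None of the 13 genes has a name in the sources used here: the authors' deposited lists pair identifiers with Arabidopsis orthologues for genes that differed between the genotypes, and 0 of the 13 genes were on these lists. They are therefore given by identifier, and no role can be stated for them.

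The 4 groups were Aatoe2_IL apices, WT apices, Aatoe2_IL V3 buds and WT V3 buds, with 3 libraries each, all of the accession Pajares. All plants had 8 weeks of long days followed by 8 weeks of vernalization, a cold treatment, in short days. The study used Aatoe2_IL to follow the role of AaTOE2, which encodes a protein of the APETALA2-like family. How the line was made and what it changes in AaTOE2 are not given in the sources used here. With 1 such line, the gene and the rest of the line's background cannot be told apart. The labels do not say whether replicates came from separate plants or pools.

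A shoot apex holds the shoot apical meristem, which maintains stem cells at its centre and forms leaves, and after the floral transition flowers, on its flanks. Axillary buds lie in leaf axils and contain a meristem of their own with young leaves around it, and they may stay dormant or grow out into branches. In Arabidopsis, TOE2 and related APETALA2-like proteins delay flowering, and cold exposure is the cue by which many perennial crucifers become able to flower.

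Reads in genes ranged from 9411616 to 12309478 per library, so that 1 read corresponded to between 0.0812 and 0.106 CPM. Along the first principal component of all genes tested, with 35.4% of the variance and the tissues at opposite ends, Aatoe2_IL apex replicate 1 lay nearest to the buds of all apex libraries (score -22.4, against -38.8 and -33.7 for the other Aatoe2_IL apices and -35.7 to -26.9 for WT apices). Along the second, with 19.7% of the variance, WT libraries scored 14.2 to 29.7. Replicate 1 of Aatoe2_IL lay nearest to WT there in both tissues. It scored 2.41 in apices, against -29.1 and -22.1 for replicates 2 and 3, and -10.4 in buds, against -37.0 and -32.5. The tissue labels could be checked only in part, because none of the 14 shoot meristem genes listed had a name in the files. Of 8 floral meristem genes listed, AP1, a floral meristem identity gene, had a name, with 2.18 to 4.44 CPM in Aatoe2_IL apices and 0.498 to 1.33 CPM in WT apices, against at most 0.0945 CPM in Aatoe2_IL buds and at most 0.209 CPM in WT buds. Named genes of other lists did not all follow the same direction. Of 14 floral organ genes listed, 3 had a name: the apex to bud ratio was 1.93 in Aatoe2_IL and 0.412 in WT for UFO, which averaged 13.2 ± 3.18 CPM in WT apices and 32.1 ± 2.54 CPM in WT buds (SD, n = 3 each). It was 3.33 in Aatoe2_IL and 1.03 in WT for SHP2, and 1.81 in Aatoe2_IL and 4.38 in WT for CRC. Of 9 branching and dormancy genes listed, 5 had a name. HB53, HB40 and NCED3 had ratios below 1 in both genotypes, 0.150, 0.523 and 0.208 in Aatoe2_IL and 0.04995, 0.319 and 0.374 in WT, while SEN1 and DRM2 had ratios of 0.582 and 0.753 in Aatoe2_IL and 1.31 and 1.04 in WT. CKX1, a cytokinin-degrading enzyme gene and 1 of 2 named among 11 cytokinin genes, had ratios of 0.0464 in Aatoe2_IL and 0.0524 in WT. Of 6 green leaf genes listed, CAB1, which encodes a chlorophyll-binding protein, had a name, with 2235 to 3034 CPM in Aatoe2_IL apices, 1516 to 2173 CPM in WT apices, 2997 to 4485 CPM in Aatoe2_IL buds and 1731 to 1797 CPM in WT buds. Of 4 phloem genes listed, SEOR1, a gene of sieve element proteins, had a name, with 16.0 to 24.99 CPM in Aatoe2_IL apices, 30.1 to 32.6 CPM in WT apices, 11.1 to 16.0 CPM in Aatoe2_IL buds and 3.27 to 7.85 CPM in WT buds. No gene of the xylem, root or epidermis lists had a name. The part of other tissue in the levels below was not tested, and in such bulk samples fewer cells of a type cannot be told apart from less RNA per cell.

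The steps of the rule show how few genes it left. Of 15529 genes with an apex mean of at least 5 CPM in both genotypes, 67 genes were at least 3-fold higher in apices than in buds in Aatoe2_IL and 134 in WT (each counted with an apex mean of at least 5 CPM in that genotype alone). Of these, 34 genes met the fold in both genotypes, and in all 34 the lowest apex library lay above the highest bud library. The apex libraries lay wholly above the bud libraries for 13.4% of the 15529 genes in Aatoe2_IL and for 13.7% in WT. The genotype ratio was within its limits in apices for 26 of the 34 genes and in buds for 13, and those 13 genes were also within the limits in apices.

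Levels of the 13 genes spanned a wide range, and 1 gene held most of their reads. Aa_G118580h1 had 1283, 1035 and 1201 CPM in Aatoe2_IL apices, against 299, 290 and 264 CPM in Aatoe2_IL buds. In WT it had 1066, 1343 and 1344 CPM in apices and 364, 381 and 411 CPM in buds. Every apex library thus lay above every bud library, with an apex to bud ratio of means of 4.12 in Aatoe2_IL and 3.25 in WT. The 13 genes summed to 1484 ± 91.0 CPM in Aatoe2_IL apices, 1540 ± 163 CPM in WT apices, 363 ± 22.1 CPM in Aatoe2_IL buds and 457 ± 22.0 CPM in WT buds (SD, n = 3 each). Aa_G118580h1 made up 75.0% to 85.3% of this sum, depending on the library. Without it the other 12 genes summed to 311 ± 41.4 CPM in Aatoe2_IL apices, 289 ± 32.3 CPM in WT apices, 78.5 ± 11.6 CPM in Aatoe2_IL buds and 72.0 ± 3.19 CPM in WT buds.

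The next gene by level was Aa_G457010h1, with 72.4, 79.3 and 82.9 CPM in Aatoe2_IL apices, against 18.3, 27.6 and 20.0 CPM in Aatoe2_IL buds. It had 62.2, 73.9 and 83.6 CPM in WT apices and 10.9, 20.0 and 23.0 CPM in WT buds. The apices of the genotypes overlapped, as did their buds, and WT bud replicate 1 was the lowest of the 12 libraries. The apex to bud ratio was 3.56 in Aatoe2_IL and 4.08 in WT.

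Contrast between the tissues was largest in genes with under 1 CPM in buds. Aa_G358030h1 had 3.60, 6.61 and 5.98 CPM in Aatoe2_IL apices, against 0.531, 0.662 and 0.528 CPM in Aatoe2_IL buds. It had 4.71, 5.90 and 9.47 CPM in WT apices and 0.523, 0.737 and 0.197 CPM in WT buds, and its WT ratio of 13.8 was the largest of the 13 genes. That ratio rests on 243 reads in WT apices against 14 reads in WT buds, and its Aatoe2_IL ratio of 9.403 on 168 reads against 17. Aa_G93530h1 had 3.95, 12.4 and 11.01 CPM in Aatoe2_IL apices, against 0.744, 0.0945 and 1.27 CPM in Aatoe2_IL buds, and 4.14, 7.81 and 11.2 CPM in WT apices, against 0.314, 1.16 and 0.790 CPM in WT buds. Replicate 1 was the lowest apex library of this gene in both genotypes, the value of 0.0945 CPM is a single read, and the ratios were 12.99 in Aatoe2_IL and 10.2 in WT. Aa_G215380h1 had 5.88, 12.4 and 7.12 CPM in Aatoe2_IL apices, against 0.638, 1.23 and 1.06 CPM in Aatoe2_IL buds, and 6.91, 3.82 and 6.98 CPM in WT apices, against 1.47, 0.316 and 0.296 CPM in WT buds. Its ratio was 8.69 in Aatoe2_IL and 8.52 in WT, with 1 high library standing apart in Aatoe2_IL apices and in WT buds. These 3 genes were the ones with a WT ratio of at least 5, and the same 3 were below 1 CPM in the buds of each genotype.

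Aa_G302680h1 and Aa_G341720h1 had the lowest and the highest genotype ratio in buds. Aa_G302680h1 had 25.6, 37.0 and 34.8 CPM in Aatoe2_IL apices, against 48.6, 41.2 and 45.2 CPM in WT apices. Its buds had 7.23, 7.47 and 6.65 CPM in Aatoe2_IL, against 14.97, 7.90 and 7.01 CPM in WT. All Aatoe2_IL apices of this gene lay below all WT apices, whereas the buds overlapped, and its Aatoe2_IL to WT ratios of 0.722 in apices and 0.714 in buds were the lowest of the 13 genes. Aa_G341720h1 had 28.3, 36.6 and 37.0 CPM in Aatoe2_IL apices, against 29.5, 20.8 and 24.6 CPM in WT apices. Its buds had 8.5, 11.2 and 8.03 CPM in Aatoe2_IL and 7.95, 5.58 and 5.53 CPM in WT. Its Aatoe2_IL buds lay above its WT buds by a narrow margin, its apices overlapped, and its bud ratio of 1.45 was the highest of the 13 genes.

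The other 6 genes, named after their values were seen so that every gene is accounted for, had apex to bud ratios between 3.02 and 5.94. Aa_G144770h1 averaged 59.6 ± 7.06 CPM in Aatoe2_IL apices and 18.2 ± 2.83 CPM in Aatoe2_IL buds, and 53.0 ± 10.5 CPM in WT apices and 15.4 ± 1.11 CPM in WT buds (SD, n = 3 each, here and in the next sentences). Aa_G422520h1 averaged 24.4 ± 3.83 CPM in Aatoe2_IL apices and 5.92 ± 1.89 CPM in Aatoe2_IL buds, and 20.6 ± 2.86 CPM in WT apices and 5.71 ± 1.13 CPM in WT buds. Aa_G169040h1 averaged 23.3 ± 3.23 CPM in Aatoe2_IL apices and 3.91 ± 2.15 CPM in Aatoe2_IL buds, and 17.7 ± 5.52 CPM in WT apices and 4.88 ± 0.915 CPM in WT buds. Among these 6, Aa_G169040h1 had the largest gap between its ratios, 5.94 in Aatoe2_IL against 3.62 in WT, and its lowest WT apex library was 1.999 times its highest WT bud library, the closest approach of the tissues among the 13 genes. Aa_G35420h1 averaged 13.3 ± 2.29 CPM in Aatoe2_IL apices and 3.61 ± 0.648 CPM in Aatoe2_IL buds, and 14.1 ± 2.54 CPM in WT apices and 3.63 ± 0.405 CPM in WT buds. Aa_G44550h1 averaged 14.0 ± 1.22 CPM in Aatoe2_IL apices and 3.63 ± 0.859 CPM in Aatoe2_IL buds, and 11.4 ± 2.32 CPM in WT apices and 3.39 ± 0.585 CPM in WT buds. Aa_G298100h1 averaged 8.91 ± 1.82 CPM in Aatoe2_IL apices and 2.68 ± 0.259 CPM in Aatoe2_IL buds, and 8.57 ± 1.94 CPM in WT apices and 2.84 ± 0.290 CPM in WT buds. The standard deviations of Aa_G35420h1 and Aa_G298100h1 exceeded the distance between the genotype means in both tissues.

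**Figure D1:**
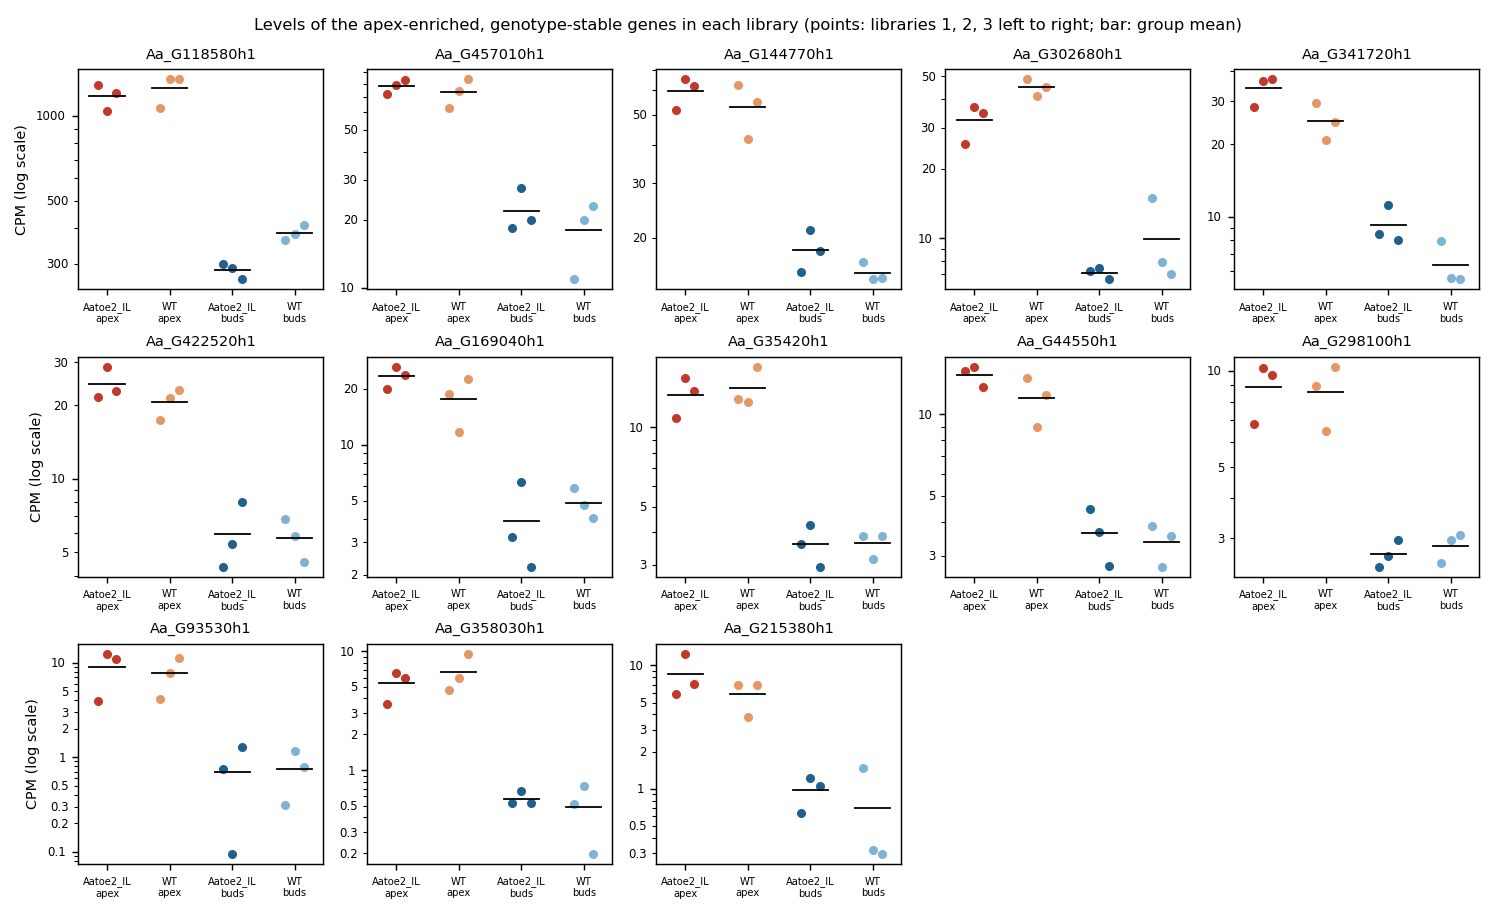
Level of each of the 13 genes in the 12 libraries, in CPM on a logarithmic axis that differs between panels. Points are the libraries of a group in the order of their replicate numbers and bars are group means. In every panel all apex libraries lie above all bud libraries of the same genotype, from Aa_G118580h1 at 1173 CPM in Aatoe2_IL apices to Aa_G93530h1, Aa_G358030h1 and Aa_G215380h1, which average under 1 CPM in buds.

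Between the tissues, the median apex to bud ratio of the 13 genes was 4.12 in Aatoe2_IL (3.27 to 12.99) and 3.89 in WT (3.02 to 13.8), and 5 of 13 genes had the larger ratio in WT. The fitted log2 fold change of apex over buds had a median of 2.01 in Aatoe2_IL and 1.98 in WT, beside medians of 0.0078 and -0.0076 over the 19520 genes tested. Since these values chose the genes, the counts from edgeR's quasi-likelihood test (adjusted p under 0.05) are a description only: 13 of 13 genes passed as higher in apices in Aatoe2_IL, where 2.50% of the genes tested did, and 13 of 13 in WT, where 6.33% did. The lowest apex library was at least 2 times the highest bud library in both genotypes for 12 of 13 genes, and at least 3 times for 2 of them, Aa_G93530h1 and Aa_G358030h1.

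Between the genotypes, the median Aatoe2_IL to WT ratio was 1.12 in apices (0.722 to 1.43) and 1.04 in buds (0.714 to 1.45). Aatoe2_IL was the higher on average for 9 of 13 genes in apices and for 7 of 13 in buds, and 9 genes lay on the same side of 1 in both tissues. In apices 0 of 13 genes passed edgeR's test of Aatoe2_IL against WT (2 at an unadjusted p under 0.05), where 0.292% of the genes tested passed as higher in Aatoe2_IL and 0.809% as lower. By DESeq2 0 of 13 passed there, where 2.83% of the genes it tested passed in either direction. The share of all genes at the unadjusted limit is not given here, for apices or for buds. In buds 0 of 13 passed by edgeR (2 at an unadjusted p under 0.05), where 2.98% passed as higher and 1.97% as lower. By DESeq2 1 gene of the 13 passed in buds, where 6.60% of the genes it tested passed in either direction. That gene was Aa_G118580h1, whose Aatoe2_IL buds all lay below the WT buds, with a DESeq2 log2 fold change of -0.39 (SE 0.13, adjusted p = 0.0423), where edgeR gave -0.40 (SE 0.13, adjusted p = 0.0947). For the genotype by tissue interaction 0 of 13 passed by edgeR or DESeq2 (0 at an unadjusted p under 0.05 in edgeR). Of the genes tested, 0.763% passed as higher and 0.272% as lower in edgeR, and 2.84% in either direction in DESeq2. Because ratios near 1 were required, none of these counts shows that the genes did not differ between the genotypes, and the standard errors of the log2 genotype difference reached 0.45 in apices and 0.85 in buds, both in Aa_G93530h1. Libraries of the genotypes did not overlap in apices for Aa_G302680h1, the 1 gene with all Aatoe2_IL apices below, where this held for 10.3% of the 15529 genes, and for 0 genes with them above, where it held for 9.55%. In buds they did not overlap for Aa_G341720h1, with Aatoe2_IL above, where 9.20% of the genes did so, and for Aa_G118580h1, with Aatoe2_IL below, where 13.1% did.

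The limits cut through a continuous range of values. The smaller of a gene's apex to bud ratios was 3.02 in Aa_G298100h1, just inside the limit, and 2.90 in the nearest gene outside it. The smaller apex mean was 5.39 CPM in Aa_G358030h1, just inside, and 4.75 CPM in the nearest gene below. In buds the genotype ratio nearest to the limits was 1.45 inside and 1.67 outside at the upper end, and 0.714 inside and 0.660 outside at the lower end.

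**Figure D2:**
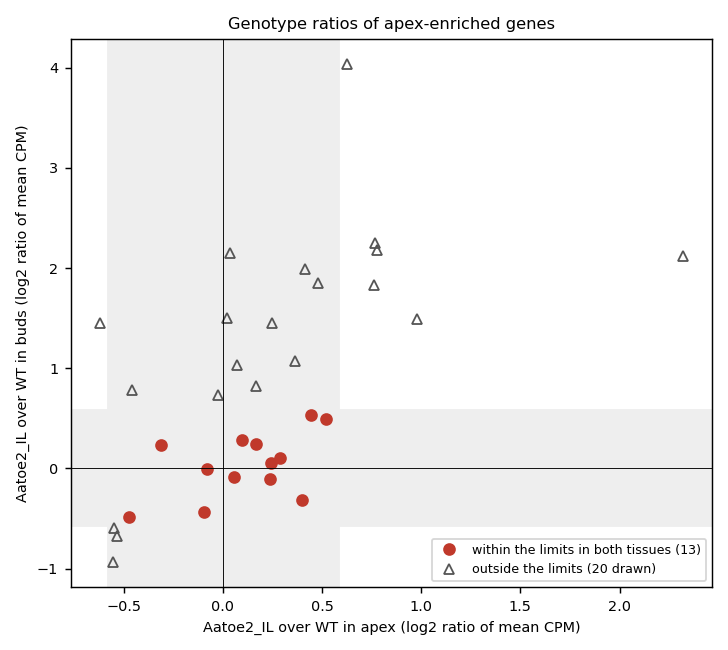
Log2 ratio of mean CPM in Aatoe2_IL over WT in apices (horizontal axis) and in buds (vertical axis) for the apex-enriched genes. Grey bands mark ratios between 0.67 and 1.5, filled circles are the 13 genes within both bands and triangles 20 of the 21 genes outside them. The remaining gene had no read in WT buds and cannot be drawn. Most triangles lie above the horizontal band, at ratios above 1.5 in buds.

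Whether the choice held in libraries that had not made it was read by applying the rule to the 8 libraries of 2 replicate numbers and then looking at the 4 libraries of the number left out. The rule chose 14, 13 and 12 genes when replicates 1, 2 and 3 were left out, of which 10, 9 and 8 were among the 13. It chose 24 different genes in all, and 6 genes every time, namely Aa_G118580h1, Aa_G457010h1, Aa_G144770h1, Aa_G422520h1, Aa_G35420h1 and Aa_G44550h1. In Aatoe2_IL, 13 of 14, 11 of 13 and 9 of 12 genes were at least 3-fold higher in the left-out apex than in the left-out bud library, against 0.359%, 0.520% and 0.553% of all genes with apex means of at least 5 CPM in the 8 libraries. In WT, 9 of 14, 9 of 13 and 12 of 12 genes were, against 0.751%, 0.835% and 1.09% of those genes. The median ratio of the chosen genes in the left-out libraries lay between 3.62 and 4.52 in Aatoe2_IL and between 3.28 and 4.76 in WT.

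The genotype ratios were read in the same way. In apices the left-out Aatoe2_IL to WT ratio lay between 0.67 and 1.5 for 11 of 14, 5 of 13 and 9 of 12 genes. It did so for 98.5%, 85.7% and 96.1% of all genes with apex means of at least 5 CPM whose ratios were within the limits in the same 8 libraries. In buds it did so for 6 of 14, 8 of 13 and 6 of 12 genes, against 90.2%, 95.3% and 93.2%. These comparison genes were not matched for level beyond the apex limit, whereas the chosen genes were by the rule at least 3-fold lower in buds than in apices. The part of low read counts in the gap was not tested, so it is not read as instability of these genes. In apices, with replicate 2 left out, ratios outside the limits arose at higher and at lower counts. Aa_G144770h1 had a ratio of 1.56 from 631 reads in Aatoe2_IL and 502 in WT. Aa_G215380h1 had 3.24 from 120 and 46 reads. The 13 genes also deviated together in single apex libraries, as given below, and the part of this in the gap was not tested. The median left-out ratio in apices was 0.838, 1.56 and 0.947 when replicates 1, 2 and 3 were left out, so that it lay below 1, above the upper limit and close to 1. All 4 conditions held together for 5 of 14, 3 of 13 and 5 of 12 genes, against 0.0784%, 0.0899% and 0.109% of all genes with apex means of at least 5 CPM in the 8 libraries. Each left-out ratio compares single libraries. The 3 choices share libraries, and the genes share the libraries they were read from, so that no test is given.

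**Figure D3:**
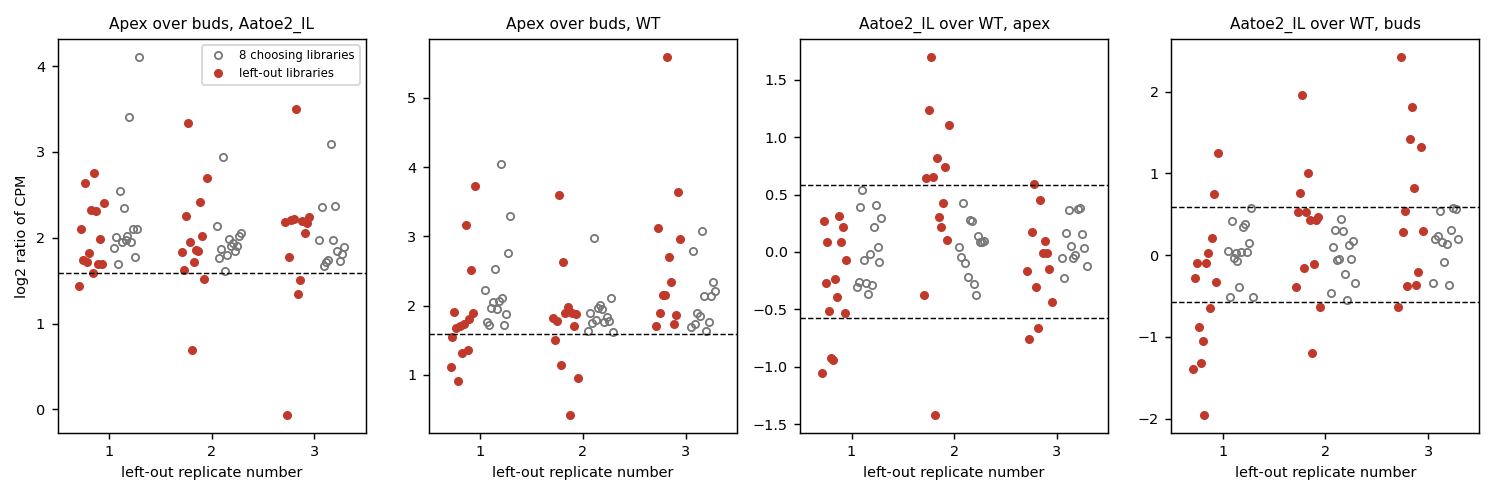
Log2 ratios of CPM for the genes chosen from 8 libraries, in those libraries (open circles) and in the 4 libraries left out (filled circles), by the replicate number left out. Dashed lines mark the limits of the rule, 3-fold for apex over buds and 0.67 and 1.5 for Aatoe2_IL over WT. Filled circles stay mostly above the line in the tissue panels and scatter beyond both lines in the genotype panels.

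The order of the replicates within a group was not set by the rule, apart from the apices lying above the buds. In Aatoe2_IL apices, replicate 1 was the lowest library for 11 of 13 genes, against 34.5% of the 15529 genes, and replicate 2 was the highest for 10 of 13, against 37.5%. In WT apices, replicate 3 was the highest for 9 of 13 genes, against 21.8%, and replicate 2 the lowest for 8 of 13, against 45.8%. The median deviation from the group mean was -0.26, 0.19 and 0.06 on the log2 scale in Aatoe2_IL apex replicates 1, 2 and 3, and 0.06, -0.18 and 0.19 in WT apex replicates 1, 2 and 3. In Aatoe2_IL buds replicate 2 was the highest for 8 of 13 genes, against 36.1%, and in WT buds replicate 1 for 8 of 13, against 48.7%. Aa_G118580h1, the highest gene, went the other way in Aatoe2_IL apices, where replicate 1 was its highest and replicate 2 its lowest library. Of the apex libraries of each genotype, the one in which most of the 13 genes peaked also lay farthest from the buds along the first principal component, with a score of -38.8 for Aatoe2_IL replicate 2 and -35.7 for WT replicate 3. CAB1 was likewise at its highest in these libraries, with 3034 CPM in Aatoe2_IL apex replicate 2 and 2173 CPM in WT apex replicate 3, and so was AP1, with 4.44 CPM in Aatoe2_IL apex replicate 2, against 2.54 and 2.18 CPM in the other Aatoe2_IL apices, and 1.33 CPM in WT apex replicate 3, against 1.22 and 0.498 CPM in the other WT apices. The WT apex values of AP1 rest on 37 reads over the 3 libraries, and at this depth 1.33 and 1.22 CPM lie too close to rank. SEOR1 had its highest WT apex value of 32.6 CPM in replicate 3. In Aatoe2_IL apices SEOR1 went the other way, with its highest value of 24.99 CPM in replicate 1, against 23.5 CPM in replicate 2. The part of what these 3 marker genes reflect in the shared deviation was not tested. Without both Aatoe2_IL replicate 1 libraries the rule again gave 13 genes, 10 of them the same.

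**Figure D4:**
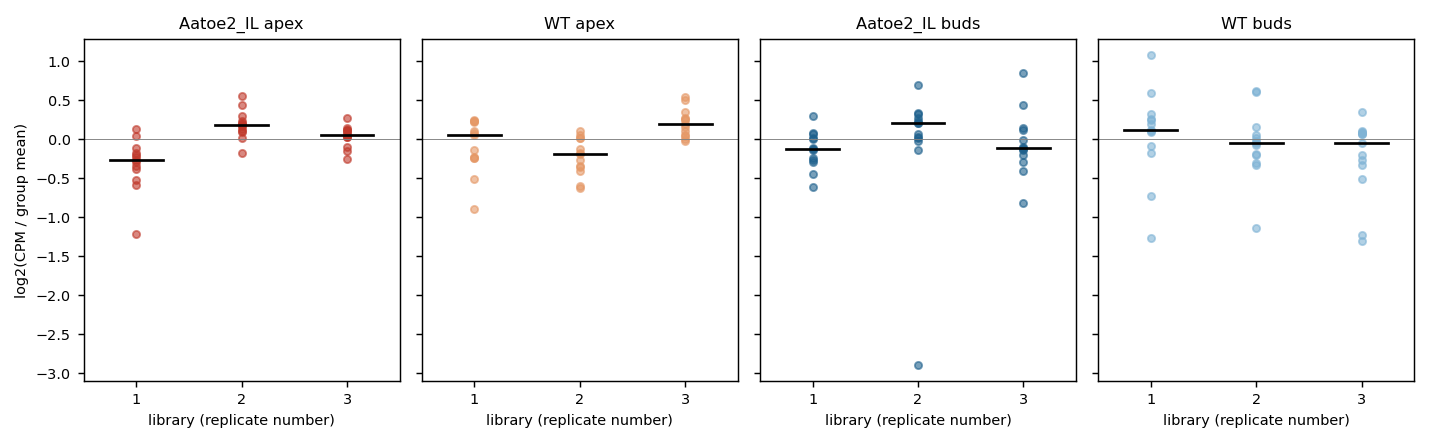
Deviation of each of the 13 genes from its group mean, as log2 of CPM over the mean CPM of the group, by library in the 4 groups. Points are genes and black bars the median over the genes. Most points lie below 0 in Aatoe2_IL apex replicate 1 and above 0 in Aatoe2_IL apex replicate 2 and WT apex replicate 3.

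Single libraries also decided which genes met the rule. With each of the 12 libraries left out in turn, it gave between 9 and 15 genes. The 6 genes that were chosen whichever replicate number was left out also met the rule whichever library was left out, and the other 7 lost their place without at least 1 library. Aa_G215380h1 lost it without any of 6 libraries, and Aa_G298100h1, Aa_G341720h1 and Aa_G93530h1 without any of 3 each. Without WT apex replicate 3, the count of 9 was the lowest.

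The 13 genes were set beside the 21 apex-enriched genes that failed the genotype limits, to see where the limits divided the tissue difference. Of these 21 genes, 18 were above the upper limit in buds, that is higher in Aatoe2_IL buds, and 3 were below the lower limit there. In apices 7 of the 21 were above and 1 below, and 0 failed in apices alone. The authors' lists held 12 of the 21 genes, 9 with an Arabidopsis orthologue and 4 with a gene symbol, against 0 of the 13. These proportions follow from the rule and from the authors' choice of genes by genotype, and are given without a test. The 4 genes with a symbol were SPL4 and bZIP58, transcription factor genes, DOT5, a zinc finger gene, and ZPR2, which encodes a small leucine zipper protein. SPL4 (Aa_G381970h1) averaged 45.9 ± 1.29 CPM in Aatoe2_IL apices, 38.7 ± 9.63 CPM in WT apices, 7.83 ± 1.92 CPM in Aatoe2_IL buds and 2.87 ± 1.88 CPM in WT buds (SD, n = 3 each). Its apex ratio between the genotypes of 1.19 was within the range of the 13 genes, and its bud ratio of 2.73 was outside. ZPR2 likewise had ratios of 1.01 in apices and 2.84 in buds, while bZIP58 was above the limit in both tissues (1.97 and 2.82), as was DOT5 (1.54 in apices and 16.4 in buds, where WT averaged 0.136 CPM).

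The other 5 orthologues that were left out by name did not reach the 3-fold limit in both genotypes. The apex to bud ratio was 2.91 in Aatoe2_IL and 10.4 in WT for SPL5, 2.50 in Aatoe2_IL and 5.30 in WT for TOE3, and 1.52 in Aatoe2_IL and 5.97 in WT for SEOR1. For SPL10 it was 2.09 in Aatoe2_IL and 2.61 in WT, and for LOG7, a cytokinin-activating enzyme gene, 2.90 in Aatoe2_IL and 1.08 in WT. SPL3, which also had a name but was not among the genes left out, had a ratio of 0.403 in Aatoe2_IL and 1.78 in WT. SPL4 was thus the only gene of the marker and flowering lists with a name in the files, 18 in all, that was at least 3-fold higher in apices in both genotypes at 5 CPM or more.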

How the data were processed

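The authors deposited raw read counts per gene for 12 poly(A) RNA libraries, read as single reads of 100 bp, per the labels' protocols. STAR, HTSeq 0.5.4p1, DESeq and DESeq2 are named in the submitters' processing notes without roles. The genome build, annotation, gene lengths and strand setting are not given in the sources used here. Genes that overlap or lie antisense are therefore uncertain. No coordinates or sequences are shown. None of the 13 genes has a second copy in the table. The 5 counters of reads outside genes were left out, and reads without a gene were 13.4% to 21.5% of all reads counted.

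CPM was computed here from each library's total of reads in genes. Genes were tested with edgeR 4.0.16 (R 4.3.3; TMM, default filter on low counts, 19520 genes, 4 groups in 1 fit, 8 residual degrees of freedom, quasi-likelihood F test, Benjamini-Hochberg adjustment over all genes tested), with DESeq2 1.42.0 as an alternative. The SE was derived from the F statistic, as the size of the log2 change over its square root. All 13 genes passed the filter. On simulated data with 200 genes changed 3-fold between the tissues, the fit recovered 98.5% of them for apex over buds in WT. The simulation held no genotype difference and changed no gene with a mean under 5 CPM in buds. The median bud level of the 13 genes was 3.91 CPM in Aatoe2_IL and 4.88 CPM in WT. The simulation therefore cannot speak for the genotype tests or for genes under 5 CPM in buds. The labels do not say that replicates are separate plants, so p-values measure the spread between these samples, which may be technical. Same-numbered Aatoe2_IL apex and bud libraries had positively correlated deviations (0.239 to 0.415), and those of WT less evenly so (0.0622 to 0.355). Between the genotypes the correlations ran from -0.285 to 0.1, so that sizes near 0.239 also arose there with a negative sign. Any pairing of same-numbered libraries is thus uncertain, and it is taken from the data and not from the labels.

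The 13 genes, the rule and the gene lists were chosen with earlier results of these data known. Identifiers described with every library were the 2 highest in apices, the 2 with the largest WT ratio and those at the extremes of the genotype ratio. The other lists (AP2-like, floral organ, cytokinin, cell division, branching) held no apex-enriched gene with a name.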

Additional observations from a re-analysis of the deposited data

How the results depend on the processing

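The count of 13 genes depended on the limits of the rule. It was 46 at an apex to bud limit of 2, 4 at a limit of 4, 35 with no lower limit on the apex mean, 8 with a narrower range of genotype ratios, from 0.8 up to its inverse, and 2 where every apex library had to be 3 times every bud library, a setting added after seeing the data. It was 14 with TMM scaling, 13 with DESeq2 size factors (12 of them the same genes), 9 at 10 CPM, 19 with ratios between 0.5 and 2, and between 9 and 15 without 1 library. The tissue difference of all 13 genes passed edgeR's test in each genotype under every alternative run. Because the rule chose the genes by this difference in the same libraries, that is a description only. Of all genes tested, 3.18% to 12.2% passed in either direction in Aatoe2_IL and 6.37% to 24.7% in WT, depending on the run. The count of genes past the genotype test in buds was 1 with DESeq2, where 6.60% of all genes tested passed, and between 0 and 1 without 1 library. The gene was Aa_G118580h1 without WT apex replicate 1, where 5.17% of all genes tested passed. With the replicate number as a block across genotypes the genotype count stayed at 0 in both tissues. That block ties libraries of different genotypes, whose deviations correlated between -0.285 and 0.1, and a block within genotype leaves the genotype test undefined. The tissue counts stayed at 13 with either block, so that no call among the 13 genes changed. Over all genes, the block within genotype raised the calls from 11.2% to 24.7% in the WT tissue test and from 1.03% to 10.2% for the interaction. The fit of bud libraries alone tested 11 of the 13 genes. At a limit of 2 in the left-out libraries, the share of chosen genes that met it was 100% in Aatoe2_IL and 92.9% in WT for replicate 1, 92.3% in Aatoe2_IL and 84.6% in WT for replicate 2, and 91.7% in Aatoe2_IL and 100% in WT for replicate 3. The share of all genes at this limit is not given here. Without Aa_G118580h1 the summed level was 311 CPM in Aatoe2_IL apices, 289 CPM in WT apices, 78.5 CPM in Aatoe2_IL buds and 72.0 CPM in WT buds. Depth limits the genes under 1 CPM in buds, where 14 to 29 reads stand behind a group.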

Other observations

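The mirrored rule, with buds at least 3-fold higher than apices in both genotypes, was met by 38 genes without overlap between the tissues, and 13 of these were within the same genotype limits in both tissues. None of these 13 bud-enriched genes was on the authors' lists either (0 of 13), so that they too have no name here.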
